A study of Homo sapiens with 22 samples.

Results

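The genes described are 9 components of the epithelial tight junction, namely the claudins *CLDN1*, *CLDN2*, *CLDN3*, *CLDN4*, *CLDN7*, *CLDN12* and *CLDN15*, occludin (*OCLN*) and zonula occludens-1 (*TJP1*), out of 61487 genes counted. They were taken by name, and all 9 were found by their Ensembl identifiers. Their mRNA was measured by RNA sequencing of undifferentiated Caco-2 cells, wild-type human colorectal adenocarcinoma cells that often stand in for the epithelium of the intestine. After 48 h of growth, 10% of the medium was replaced for another 48 h, and the medium of all groups already held an antibiotic-antimycotic supplement. Control cells received phosphate-buffered saline (PBS, n = 4). Faecal water (FW), the clarified supernatant of mouse faeces homogenised in PBS, came from untreated mice (FWctl, n = 7) or from mice given antibiotics in their drinking water (FWatb, n = 7), and the study states that the same mice gave both. The remaining group received the antibiotic cocktail alone (ATB, n = 4). The study lists neomycin at 1 g/L, vancomycin at 0.5 g/L and meropenem at 0.25 g/L for this cocktail in the mice's drinking water. It does not state the concentrations in the medium of the cells. The comparisons ask whether FW alters the cells' transcripts, whether this depends on the bacteria of the donor mice, and whether the antibiotics alone have an effect.

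Tight junctions seal the space between neighbouring epithelial cells and set which solutes can pass between them. Claudins form the strands of the junction. Some of them (such as *CLDN1* and *CLDN4*) tighten the barrier, while *CLDN2* and *CLDN15* form channels for cations and *CLDN2* also for water. Occludin is a membrane protein of the same strands, and *TJP1* is the cytoplasmic scaffold that ties claudins and occludin to actin. In the intestine *CLDN2* is typical of crypts and of inflamed or leaky epithelium.

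*CLDN2* rose under FWatb, to 2.34 times its PBS level, and did not pass the test under FWctl or ATB. *OCLN* and *TJP1* rose under FWctl, and both were lower under FWatb than under FWctl. *OCLN* also rose under ATB, by 0.38 on the log2 scale, against 0.44 under FWctl. That rise under ATB passed the test in 16 of the 21 fits that left out 1 library. *TJP1* did not pass the test under ATB. *CLDN7* and *CLDN12* rose by smaller amounts under FWctl. *CLDN1* and *CLDN4*, the claudins with the most reads per length, moved by at most 0.27 on the log2 scale in any comparison. That largest value was *CLDN1* under ATB, where every sample lay above the PBS samples but the test was not passed. *CLDN3* was almost without reads.

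The authors' table holds raw read counts, with totals of 7118302 to 18726967 per sample. Levels are given below as counts-per-million (CPM) after TMM scaling. Differences are log2 fold changes from edgeR's quasi-likelihood test over the 20373 genes that passed a filter on low counts, with Benjamini-Hochberg adjusted p-values and 0.05 as the threshold. The study excluded 1 FWctl sample without naming it, and FWctl replicate 1 was taken as that sample, so FWctl has n = 6 in the tests and replicate 1 is given apart. The libraries fell into sets by their share of counts on ribosomal DNA genes, 0.0162% to 0.0802% in 8 low-rDNA libraries (PBS replicates 3 and 4, FWctl replicates 1, 2 and 3, ATB replicates 1, 3 and 4) and 1.87% to 8.18% in the other 14, the high-rDNA libraries, which hold all FWatb libraries. The labels name no batch. Intestinal epithelial markers such as *EPCAM*, *CDH17* and *KRT18* summed to 2819 to 3943 CPM over all groups, and 6 of the 9 were called in FWctl against PBS (3 higher, 3 lower, against 46.4% of all genes called) and 6 in FWatb against FWctl (3 higher, 3 lower, against 48.8%). The scarce *KRT20*, a keratin of differentiated enterocytes, had a mean of 1.21 CPM under PBS, 0.184 CPM under FWctl and 1.72 CPM under FWatb, with log2 fold changes of -2.74 in FWctl against PBS (edgeR adjusted p = 7.71e-06) and 3.22 in FWatb against FWctl (adjusted p = 3.92e-08). *KRT18* moved the same way, with -0.285 (adjusted p = 0.0183) and 0.893 (adjusted p = 2.67e-11). Opposite to these, *CDH17* had 0.402 (adjusted p = 5.73e-05) and -0.47 (adjusted p = 2.11e-07), and *VIL1* had 0.379 (adjusted p = 2.64e-05) and -0.343 (adjusted p = 9.46e-06). The 9 markers of other cell types summed to 14.06 to 14.39 CPM under PBS and 6.283 to 9.248 CPM under FWctl, with the immune marker *PTPRC* and the stromal marker *ACTA2* at or near 0. Of the 5 of these 9 that were tested, 3 were called in FWctl against PBS (1 higher, 2 lower, against 46.4% of all genes called). In FWatb against FWctl 3 were called (2 higher, 1 lower, against 48.8%). The collagen gene *COL1A1* had log2 fold changes of -2.86 (edgeR adjusted p = 6.14e-15) and 2.74 (adjusted p = 3.44e-15). The endothelial markers *VWF* and *PECAM1* moved in opposite directions. *VWF* had 2.002 (adjusted p = 1.52e-07) and -1.67 (adjusted p = 1.75e-07), and *PECAM1* had -1.002 (adjusted p = 1.7e-05) and 1.159 (adjusted p = 1.71e-07). *KRT20*, *VWF* and *PECAM1* were singled out after their values were seen. The part of these shifts in the results was not tested. The labels do not say whether samples of a group were separate cultures, so the p-values measure the spread between these samples, which may be partly technical. In bulk RNA a lower count cannot be told apart from fewer cells carrying the transcript.

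Per kilobase of exonic sequence over all annotated transcripts of a gene, *CLDN4* and *CLDN1* led in PBS cells with mean levels of 52.2 and 51.8 CPM per kb. Such lengths (4699 bases for *CLDN4* and 3628 for *CLDN1*) can exceed those of the transcripts that the cells make. The order of genes with close levels and the claudin shares below depend on these lengths. *CLDN7* followed at 25.7, *OCLN* at 18.6, *CLDN12* at 11.6 and *TJP1* at 8.64 CPM per kb. The channel-forming claudins were far lower, with *CLDN2* at 1.34 and *CLDN15* at 1.14 CPM per kb. The claudin mRNA of these cells was thus mostly of the barrier type, and the *CLDN2* changes below start from a low level.

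Sequence upstream of the transcription start was read for each member from RefSeq (GRCh38.p14), as the 250 bases before each annotated start. The 9 genes had 15 such windows, of which 5 held no exonic base in GENCODE 44, namely 2 of *TJP1* and 1 each of *CLDN2*, *CLDN3* and *CLDN7*. Shown are 3 of these 5, chosen for the genes at either end of the results: *CLDN2* (chrX:106918110-106918359, + strand), which had the largest fold change of the members, *TJP1* (chr15:29969050-29969299, - strand), which rose most under FWctl, at the more upstream of its 2 windows, and *CLDN3* (chr7:73770271-73770520, - strand), which had almost no reads. Each runs 5′ to 3′ on the gene's strand, and capitals mark matches on either strand to GGGCGG, the core of the SP1 and KLF motif, or to CAGGTG, an E-box.
CLDN2: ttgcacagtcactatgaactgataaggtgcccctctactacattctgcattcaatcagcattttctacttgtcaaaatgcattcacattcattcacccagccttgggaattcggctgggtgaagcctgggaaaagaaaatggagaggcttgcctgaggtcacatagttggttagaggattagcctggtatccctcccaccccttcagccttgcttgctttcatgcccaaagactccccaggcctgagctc
TJP1: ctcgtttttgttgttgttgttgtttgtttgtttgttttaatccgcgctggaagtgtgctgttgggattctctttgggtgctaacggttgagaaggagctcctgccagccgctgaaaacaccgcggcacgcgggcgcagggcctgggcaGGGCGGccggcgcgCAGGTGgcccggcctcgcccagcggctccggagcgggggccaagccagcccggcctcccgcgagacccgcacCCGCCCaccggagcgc
CLDN3: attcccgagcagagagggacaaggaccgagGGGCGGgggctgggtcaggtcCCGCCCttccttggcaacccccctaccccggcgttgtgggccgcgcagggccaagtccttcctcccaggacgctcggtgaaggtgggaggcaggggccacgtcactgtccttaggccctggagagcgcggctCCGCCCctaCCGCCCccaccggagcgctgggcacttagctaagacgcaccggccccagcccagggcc
The *CLDN2* window has no match and 48.8% G and C, the *TJP1* window has 2 GGGCGG and 1 CAGGTG matches and 66.8% G and C, and the *CLDN3* window has 4 GGGCGG matches and 71.6% G and C. No match overlaps another in these windows. The other exon-free windows, of *TJP1* (chr15:29820675-29820924, 34.8% G and C) and *CLDN7* (chr17:7263214-7263463, 60.4% G and C), have no match to the motifs searched. Over all 35116 RefSeq windows of this length, 42.6% hold GGGCGG, 17.5% hold CAGGTG, 10.7% hold TATAAA (the TATA box) and 6.57% hold TGANTCA (the AP-1 motif). Among the 15 member windows, 9 hold GGGCGG, 4 hold CAGGTG, 3 hold TGANTCA and 0 hold TATAAA. The other *CLDN2* start (chrX:106899914-106900163) has 1 of the TGANTCA matches, in bases that are also exonic in *RIPPLY1* on the opposite strand. These are matches of letters and say nothing of binding.

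*CLDN2* (ENSG00000165376, chrX:106900164-106930861, + strand), the pore-forming claudin for cations and water, was higher under FWatb than in any other group. The PBS samples had 5.073, 3.253, 4.362 and 5.613 CPM. The 6 FWctl samples had a lowest level of 3.100, a median of 5.346 and a highest of 7.882 CPM. The 7 FWatb samples had 9.043, 9.875 and 13.78 CPM in the same order. No FWatb sample overlapped the PBS, ATB or FWctl samples, whereas FWctl and PBS overlapped. ATB samples had 4.551, 5.525, 5.352 and 4.208 CPM, within the range of PBS.

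The log2 fold change of *CLDN2* was 1.23 (SE 0.166) in FWatb against PBS (edgeR adjusted p = 2.25e-06), a 2.34-fold difference. Against FWctl it was 1.04 (SE 0.149, adjusted p = 1.51e-07), a 2.06-fold difference. The call held under each of the 31 alternatives tried against PBS and each of the 32 against FWctl, the fits within the 14 high-rDNA libraries included, where the log2 fold changes were 1.35 and 1.17. FWctl against PBS gave 0.19 (95% confidence interval -0.18 to 0.56, adjusted p = 0.431, and 0.54 at an adjusted p of 0.0918 with all 22 samples) and ATB against PBS 0.06 (interval -0.34 to 0.45, adjusted p = 0.986), and neither passed the threshold. All *CLDN2* comparisons rest on modest counts, 31 to 160 reads per sample. *RIPPLY1* shares 341 exonic bases with *CLDN2* on the opposite strand and had 0 to 7 reads per sample. FWctl replicate 1 had 15.38 CPM (238 reads), above every other library. With it included, the log2 fold change of FWatb against FWctl was 0.68 (edgeR adjusted p = 0.00744).

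*CLDN15* (ENSG00000106404, chr7:101232092-101238820, - strand), which forms cation channels in the small intestine, was also scarce, with 13 to 60 reads per sample. Under PBS it had 4.043, 2.563, 3.490 and 3.052 CPM, and under FWctl its lowest, median and highest levels were 1.701, 2.117 and 2.917 CPM. The groups overlapped, but most FWctl samples were below the PBS samples. It was the only member that fell under FWctl, with a log2 fold change of -0.53 (SE 0.198, edgeR adjusted p = 0.0265). The call was lost with the replicate number as a block (-0.42, adjusted p = 0.104), within the high-rDNA (-0.60, adjusted p = 0.117) and the low-rDNA libraries (-0.52, adjusted p = 0.132), without PBS replicate 1 (-0.47, adjusted p = 0.0756) and without FWctl replicate 2 (-0.44, adjusted p = 0.0782). Mean levels were 2.60 ± 0.549 CPM (SD, n = 7) under FWatb and 2.49 ± 0.287 CPM (SD, n = 4) under ATB, and no other comparison passed the threshold.

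The barrier claudins *CLDN1* (ENSG00000163347, chr3:190305707-190322446, - strand) and *CLDN4* (ENSG00000189143, chr7:73799542-73832690, + strand) moved by at most 0.27 on the log2 scale in the 4 comparisons. *CLDN1*, which is needed for barriers such as that of the skin, had 187.9 ± 10.8 CPM (SD, n = 4) under PBS, 199.1 ± 14.3 (n = 6) under FWctl and 180.0 ± 6.75 (n = 7) under FWatb. Under ATB its samples had 223.1, 221.0, 236.2 and 224.5 CPM, all above the 177.5 to 201.0 CPM of PBS. The log2 fold change of *CLDN1* in ATB against PBS was 0.27 (SE 0.074) and missed the threshold in edgeR (adjusted p = 0.107), but passed it with DESeq2 (adjusted p = 0.00648) and with the replicate number as a block (adjusted p = 0.0315). FWatb against FWctl gave -0.15 (SE 0.059, adjusted p = 0.0355). This call held in 2 of the 21 fits that left out 1 library (those without PBS replicate 4 and without ATB replicate 1), and over these 21 fits the log2 fold change lay between -0.15 and -0.08 and the adjusted p between 0.0387 and 0.287. With the FW samples alone and the replicate number as a block it was -0.10 (adjusted p = 0.14).

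*CLDN4*, whose product limits sodium passage and binds a bacterial enterotoxin of Clostridium perfringens, had 204.4, 246.6, 255.2 and 275.5 CPM under PBS. It had 259.2 ± 29.2 CPM (SD, n = 6) under FWctl, 223.4 ± 19.6 (n = 7) under FWatb and 257.0 ± 9.97 (n = 4) under ATB. All groups overlapped. *CLDN4* was lower under FWatb than under FWctl by a log2 fold change of -0.22 (SE 0.071, edgeR adjusted p = 0.0101). That call was lost without FWctl replicate 3 (-0.17, adjusted p = 0.0678), FWctl replicate 4 (-0.18, adjusted p = 0.0587), FWctl replicate 7 (-0.14, adjusted p = 0.0918), FWatb replicate 6 (-0.17, adjusted p = 0.0503) or FWatb replicate 8 (-0.17, adjusted p = 0.0584), and in the high-rDNA libraries alone (-0.17, adjusted p = 0.0885). Against PBS the log2 fold changes were 0.09, -0.12 and 0.07 for FWctl, FWatb and ATB, with edgeR adjusted p-values of 0.374, 0.388 and 0.923.

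*CLDN7* (ENSG00000181885, chr17:7259903-7263983, - strand), which is also found along the basolateral membrane of intestinal cells, rose under FWctl. The PBS samples had 57.79, 62.88, 64.09 and 71.17 CPM. The FWctl samples had a lowest, median and highest level of 71.50, 79.13 and 93.24 CPM. Every FWctl sample was above every PBS sample, by a narrow margin at PBS replicate 4. The log2 fold change was 0.36 (SE 0.083, edgeR adjusted p = 0.000441), while a fit of the low-rDNA libraries alone gave 0.23 (adjusted p = 0.0719). Under FWatb *CLDN7* ranged from 57.21 to 78.48 CPM (median 77.81), across both other groups, and its log2 fold changes of 0.19 against PBS (adjusted p = 0.14) and -0.17 against FWctl (adjusted p = 0.0509) missed the threshold in edgeR. The first passed without FWatb replicate 6, the lowest sample (0.23, adjusted p = 0.0379), and the second without FWatb replicate 7 (-0.18, adjusted p = 0.0392). ATB against PBS gave 0.14 (edgeR adjusted p = 0.773). *ELP5*, on the opposite strand with 38 exonic bases in common, had a log2 fold change of 0.31 in FWctl against PBS (edgeR adjusted p = 0.0166). A readthrough transcript on the same strand (ENSG00000262302), which shares 269 bases (10.79% of the *CLDN7* exons), had 0 reads in every library. The part of these genes in the *CLDN7* result was not tested.

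*CLDN3* (ENSG00000165215, chr7:73768997-73770270, - strand), a barrier claudin of the gut and the neighbour of *CLDN4* on the chromosome, had 0 reads in 19 libraries and 1 read in 3. A floor of 3 reads per library, which a count of 0 allows, corresponds to 0.163 to 0.448 CPM. This covers counting error only. *CLDN3* was the 1 member of 9 that failed the filter on low counts, so the counts of calls below are over 8 members.

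*CLDN12* (ENSG00000157224, chr7:90383721-90513402, + strand), a claudin without the usual binding motif for ZO proteins that has been linked to calcium uptake, rose under FWctl. The PBS samples had 71.74, 77.18, 77.65 and 83.27 CPM. The lowest, median and highest levels were 89.73, 98.94 and 105.2 CPM under FWctl and 84.77, 87.45 and 92.79 CPM under FWatb. PBS lay below both FW groups without overlap, whereas the 2 FW groups overlapped. The log2 fold change of *CLDN12* was 0.35 (SE 0.068, edgeR adjusted p = 3.96e-05) in FWctl against PBS, and 0.23 (adjusted p = 0.0696) within the low-rDNA libraries. FWatb against PBS gave 0.20 (SE 0.066), at an adjusted p of 0.0501 that crossed the threshold without PBS replicate 4 (0.23, adjusted p = 0.0499), FWctl replicate 2 (0.20, adjusted p = 0.0438), FWctl replicate 7 (0.20, adjusted p = 0.0458) or ATB replicate 2 (0.20, adjusted p = 0.0383). FWatb against FWctl gave -0.15 (SE 0.059, edgeR adjusted p = 0.028), a call that held in 4 of the 21 fits without 1 library (those without PBS replicate 4, FWctl replicate 2, FWatb replicate 7 or ATB replicate 1). Over those 21 fits its log2 fold change lay between -0.19 and -0.10 and its adjusted p between 0.00974 and 0.194. A fit of the FW samples with a replicate block gave -0.11 (adjusted p = 0.0842).

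ATB against PBS gave 0.18 for *CLDN12* (edgeR adjusted p = 0.47). *CLDN12* shares 347 exonic bases, 5.17% of its own, with *GTPBP10* on the same strand. *GTPBP10* had 39.7 to 47.7 CPM under PBS and 66.3 to 76.0 CPM under FWctl, with a log2 fold change of 0.74 (edgeR adjusted p = 2.12e-11). Other genes on that strand share 531 bases (*PTTG1IP2*, 7.92%, 0 to 1 reads per library), 371 bases (ENSG00000273299, a long noncoding RNA, 5.53%, 0 reads) and 201 bases (*CDK14*, 3.0%). *CDK14* had a log2 fold change of -0.53 in FWctl against PBS (edgeR adjusted p = 0.0064). The part of shared reads in the *CLDN12* result was not tested.

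*OCLN* (ENSG00000197822, chr5:69492292-69558104, + strand) rose under FWctl and was lowest under FWatb. PBS samples had 189.5, 202.6, 209.5 and 234.0 CPM. FWctl samples had a lowest, median and highest level of 255.4, 277.9 and 312.3 CPM, and FWatb samples of 168.2, 178.8 and 184.7 CPM. The PBS, FWctl and FWatb samples formed 3 ranges that did not overlap, with PBS between the FW groups. The ATB samples, at 253.1, 287.7, 266.2 and 274.7 CPM, lay above all PBS samples. The lowest of them was just below the FWctl samples, and the rest were within the FWctl range.

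The log2 fold change of *OCLN* was 0.44 (SE 0.071, edgeR adjusted p = 1.61e-06) in FWctl against PBS and -0.65 (SE 0.060, adjusted p = 3.94e-12) in FWatb against FWctl. Both calls held in all 32 refits, in which no minimum fold change was set, with log2 fold changes between 0.36 and 0.49 and between -0.66 and -0.55. FWctl had thus 1.36 times the PBS level of *OCLN*, and FWatb 0.636 times the FWctl level.

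The smaller differences of *OCLN* were less firm. FWatb against PBS gave -0.21 (SE 0.068, edgeR adjusted p = 0.0347). This call was lost in 6 fits without 1 library, namely without PBS replicate 2 (-0.23, adjusted p = 0.058), PBS replicate 3 (-0.21, adjusted p = 0.0827), PBS replicate 4 (-0.16, adjusted p = 0.19), FWatb replicate 1 (-0.21, adjusted p = 0.0761), FWatb replicate 2 (-0.21, adjusted p = 0.0682) or FWatb replicate 8 (-0.22, adjusted p = 0.0567). The PBS samples of the high-rDNA set (189.5 and 202.6 CPM) were below those of the low-rDNA set (209.5 and 234.0 CPM), and within the high-rDNA libraries, where all FWatb samples are, the log2 fold change was -0.13 (adjusted p = 0.401).

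ATB against PBS gave 0.38 for *OCLN* (SE 0.076, edgeR adjusted p = 0.0175). That call was lost without PBS replicate 1 (0.32, adjusted p = 0.144), PBS replicate 2 (0.35, adjusted p = 0.168), PBS replicate 3 (0.37, adjusted p = 0.0602), ATB replicate 3 (0.37, adjusted p = 0.0871) or ATB replicate 4 (0.36, adjusted p = 0.0785), and within the low-rDNA libraries (0.24, adjusted p = 0.393). *OCLNP1*, a near-identical partial copy of *OCLN*, had 4 to 39 reads per sample and was called in no comparison, with edgeR adjusted p-values from 0.0756 to 0.937.

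*TJP1* (ENSG00000104067, chr15:29699367-29968915, - strand) rose most of the members under FWctl. PBS samples had 94.41, 99.35, 94.51 and 102.7 CPM. FWctl samples had a lowest, median and highest level of 140.5, 148.8 and 171.2 CPM, and FWatb samples of 97.09, 102.4 and 110.0 CPM. All FWctl samples lay above every sample of the other groups, while FWatb overlapped PBS. ATB samples had 114.4, 99.60, 103.9 and 108.0 CPM and overlapped PBS as well.

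For *TJP1* the log2 fold change was 0.64 (SE 0.067, edgeR adjusted p = 1.23e-10) in FWctl against PBS, 1.56 times the PBS level. In FWatb against FWctl it was -0.55 (SE 0.057, adjusted p = 7.49e-11). Both calls held in all 32 refits, in which no minimum fold change was set, with ranges of 0.56 to 0.66 and -0.56 to -0.45. FWatb against PBS gave 0.09 (95% confidence interval -0.04 to 0.22, edgeR adjusted p = 0.461) and ATB against PBS 0.13 (interval -0.02 to 0.28, adjusted p = 0.697). *TJP1* under FWatb thus did not differ detectably from PBS, unlike *OCLN*, although the difference between these genes was not tested.

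**Figure D1:**
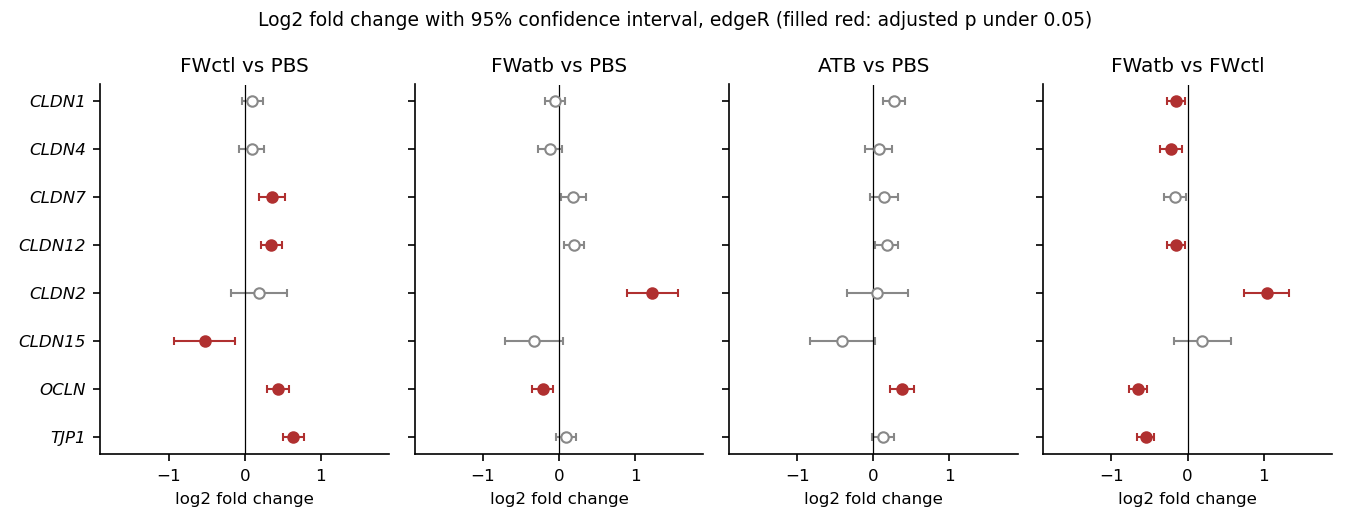
Log2 fold change (horizontal axis) with its 95% confidence interval for the 8 tested members (vertical axis) in the 4 comparisons, from edgeR, with filled red points where the adjusted p was under 0.05. *CLDN2* stands to the right in both FWatb comparisons (1.23 and 1.04), and *OCLN* and *TJP1* lie to the right in FWctl against PBS (0.44 and 0.64) and to the left in FWatb against FWctl (-0.65 and -0.55).

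In FWctl against PBS, 5 of the 8 tested members were called, 4 higher (*CLDN7*, *CLDN12*, *OCLN*, *TJP1*) and 1 lower (*CLDN15*). Of all genes tested, 46.4% were called, 24.3% higher and 22.1% lower. The samples of 4 members did not overlap, all higher, against 33.2% of all genes (16.9% higher, 16.3% lower). None had an absolute log2 fold change above 1 as well, against 13.2% of all genes. The median log2 fold change of the members was 0.27, against 0.02 over all genes. With 8 genes, a count this near the background is not a result about the members as a group.

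In FWatb against FWctl, 6 of 8 were called, *CLDN2* higher and *OCLN*, *TJP1*, *CLDN4*, *CLDN1* and *CLDN12* lower, where 48.8% of all genes were called (23.4% higher, 25.4% lower). The groups did not overlap for 3 of 8 (*CLDN2*, *OCLN*, *TJP1*), against 25.2% of all genes (12.1% higher, 13.1% lower). This count of calls was 3 without FWctl replicate 3, FWctl replicate 4, FWctl replicate 7, FWatb replicate 6 or FWatb replicate 8, with *CLDN2*, *OCLN* and *TJP1* kept in each, and 4 in the FW samples alone with a replicate block (these and *CLDN4*). With an absolute log2 fold change above 1 also required, *CLDN2* alone remained, against 12.7% of all genes.

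In FWatb against PBS, 2 of 8 were called (*CLDN2* higher, *OCLN* lower), against 9.99% of all genes (6.04% higher, 3.95% lower). Without overlap were 3 of 8 (*CLDN2* and *CLDN12* higher, *OCLN* lower), against 6.66% of all genes (3.27% higher, 3.39% lower). The count of calls was 1 without PBS replicate 2, PBS replicate 3, FWatb replicate 1, FWatb replicate 2 or FWatb replicate 8. Also with an absolute log2 fold change above 1, *CLDN2* remained, against 0.564% of all genes.

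In ATB against PBS, 1 of 8 was called (*OCLN*, higher), against 0.285% of all genes (0.255% higher, 0.0295% lower). The groups did not overlap for 2 of 8 (*CLDN1* and *OCLN*, higher), against 5.26% of all genes (3.17% higher, 2.09% lower). No member had an absolute log2 fold change above 1 as well, against 0.0344% of all genes. The count of calls was 0 without PBS replicate 1, PBS replicate 2, PBS replicate 3, ATB replicate 3 or ATB replicate 4. The comparisons share the PBS or the FWctl samples, so they are not independent of each other.

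FWctl and FWatb samples with the same number were read as 1 mouse before and under antibiotics, which follows from the methods but is not written in the labels. Over the 6 pairs without replicate 1, *CLDN2* was higher under FWatb in 6 of 6, with log2 ratios from 0.20 to 2.02 and a median of 1.23 (lowest in the pair of replicate 2, highest in that of replicate 8). *OCLN* was lower in 6 of 6, between -0.76 and -0.48, and *TJP1* in 6 of 6, between -0.64 and -0.43. *CLDN1*, *CLDN4* and *CLDN12* were also lower in 6 of 6, with ranges reaching -0.02, -0.05 and -0.04. *CLDN7* was lower in 4 and higher in 2, and *CLDN15* lower in 2 and higher in 4.

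FWctl replicate 1 did not follow the other FWctl samples for several members. Beside its *CLDN2* level of 15.38 CPM, its *OCLN* (215.9 CPM) was below all other FWctl samples and within the PBS range, and its *TJP1* (118.9 CPM) lay between the other FWctl samples and all samples of the other groups. *CLDN4* (189.0 CPM) was lower than in every other library. *CLDN7* (91.33 CPM), *CLDN1* (192.0 CPM) and *CLDN15* (2.521 CPM) were within the FWctl range, and *CLDN12* (83.25 CPM) was below all FWctl and FWatb samples.

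Among the 7 claudins, *CLDN1* and *CLDN4* together made up most of the reads per exonic length in every group. *CLDN1* had a mean share of 36.1% ± 2.48 (SD, n = 4) under PBS and 34.7% ± 2.12 (n = 7) under FWatb, and *CLDN4* 36.3% ± 2.43 and 33.1% ± 1.83. *CLDN2* had 0.932% ± 0.194 under PBS, 0.955% ± 0.302 (n = 6) under FWctl, 0.898% ± 0.124 (n = 4) under ATB and 2.20% ± 0.322 under FWatb. Every FWatb sample (1.85% to 2.66%) was above every sample of those groups, whose highest share was 1.41%. The median ratio of *CLDN1* to *CLDN2* per length was 37.0 under PBS (range 33.7 to 52.3), 35.8 under FWctl (24.8 to 62.5), 43.8 under ATB (37.6 to 50.2) and 16.1 under FWatb (12.2 to 19.0). The summed claudin level overlapped between PBS (133.3 to 157.7 CPM per kb) and FWatb (135.2 to 151.9). It was 151.3 to 167.8 CPM per kb under FWctl and 156.2 to 165.2 under ATB. All ATB samples thus lay above the FWatb samples, and FWctl overlapped FWatb only narrowly.

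Other genes of the junction were read from lists by role, chosen like the members with earlier results known. Of 10 other membrane proteins, 9 were tested and 4 were called in FWctl against PBS (1 higher, 3 lower), where 46.4% of all genes were called. *MARVELD2* (tricellulin, which seals the corners where cells meet and lies 48.0 kb before *OCLN* on the same strand) had 97.4 ± 4.52 CPM (SD, n = 4) under PBS, 146.3 ± 8.89 (n = 6) under FWctl and 80.0 ± 4.82 (n = 7) under FWatb. It rose under FWctl (log2 fold change 0.60, edgeR adjusted p = 8.16e-10) and was lower under FWatb than under FWctl (-0.87, adjusted p = 2.91e-16) and than under PBS (-0.27, adjusted p = 0.0045), the order seen for *OCLN*. *CXADR*, the adhesion receptor for coxsackie and adenoviruses, fell under FWctl (-0.52, adjusted p = 2.51e-08), as did *F11R* (JAM-A, an adhesion molecule of the junction; -0.24, adjusted p = 0.0125), and both were higher under FWatb than under FWctl (0.43 and 0.21).

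Of 20 other scaffold and polarity genes, 19 were tested, with 5 higher and 6 lower in FWctl against PBS (46.4% of all genes called) and 5 higher and 4 lower in FWatb against FWctl (48.8% of all genes called). *TJP3* (ZO-3), a relative of *TJP1*, fell under FWctl (-0.82, edgeR adjusted p = 1.09e-10) and was higher under FWatb than under FWctl (0.69, adjusted p = 4.77e-10). The polarity kinases *PRKCZ* (-0.67) and *PRKCI* (-0.48) and the scaffold *MAGI1* (-0.58) fell under FWctl, whereas cingulin (*CGN*, 0.39) and its paralogue *CGNL1* (0.44), which link the junction to the cytoskeleton, rose.

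Of 16 genes of contractility and signalling, 6 were higher and 6 lower in FWctl against PBS, against 24.3% and 22.1% of all genes. The myosin light chain kinase *MYLK* rose (0.61, edgeR adjusted p = 1.02e-07), and the light chains *MYL9* (-0.55) and *MYL12B* (-0.44) and the RhoA activator *ARHGEF18* (-0.62) fell. In adherens junctions 5 of 10 were called in FWctl against PBS (46.4% of all genes called), with *CDH17* higher (0.40) and *NECTIN2* lower (-0.62), and E-cadherin (*CDH1*) at 0.07 (adjusted p = 0.525). Of 7 desmosomal genes 5 were called, against the same 46.4%, with *DSP* (0.78), *PERP* (0.69) and *JUP* (0.43) higher and *PKP3* lower (-0.89). The median log2 fold changes of these lists (-0.17 for membrane proteins, -0.03 for scaffolds, 0.02 for contractility, 0.11 for adherens junctions and 0.29 for desmosomes) lay on both sides of the 0.02 over all genes.

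Among 12 tested transcription factors of epithelial and claudin genes, 5 were higher and 2 lower in FWctl against PBS, where 24.3% of all genes were called higher and 22.1% lower. In FWatb against FWctl 3 were higher and 4 lower, against 23.4% and 25.4% of all genes. *GATA6* (1.09, edgeR adjusted p = 6.26e-14) and *GRHL2* (0.84, adjusted p = 9.77e-11), both factors of epithelial identity, rose, and each was lower under FWatb than under FWctl (-1.10 and -0.86). *SNAI1*, a repressor of junction genes, fell (-0.54, adjusted p = 0.00394). *GATA4*, which lies outside the rule for named genes, fell as well (-1.22, adjusted p = 4.01e-05). Its level was higher under FWatb than under FWctl (0.70, adjusted p = 0.00974). *CDX2*, the caudal-type homeobox factor of intestinal identity, had -0.16 (adjusted p = 0.102) under FWctl and was higher under FWatb than under FWctl (0.27, adjusted p = 0.00133).

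**Figure D2:**
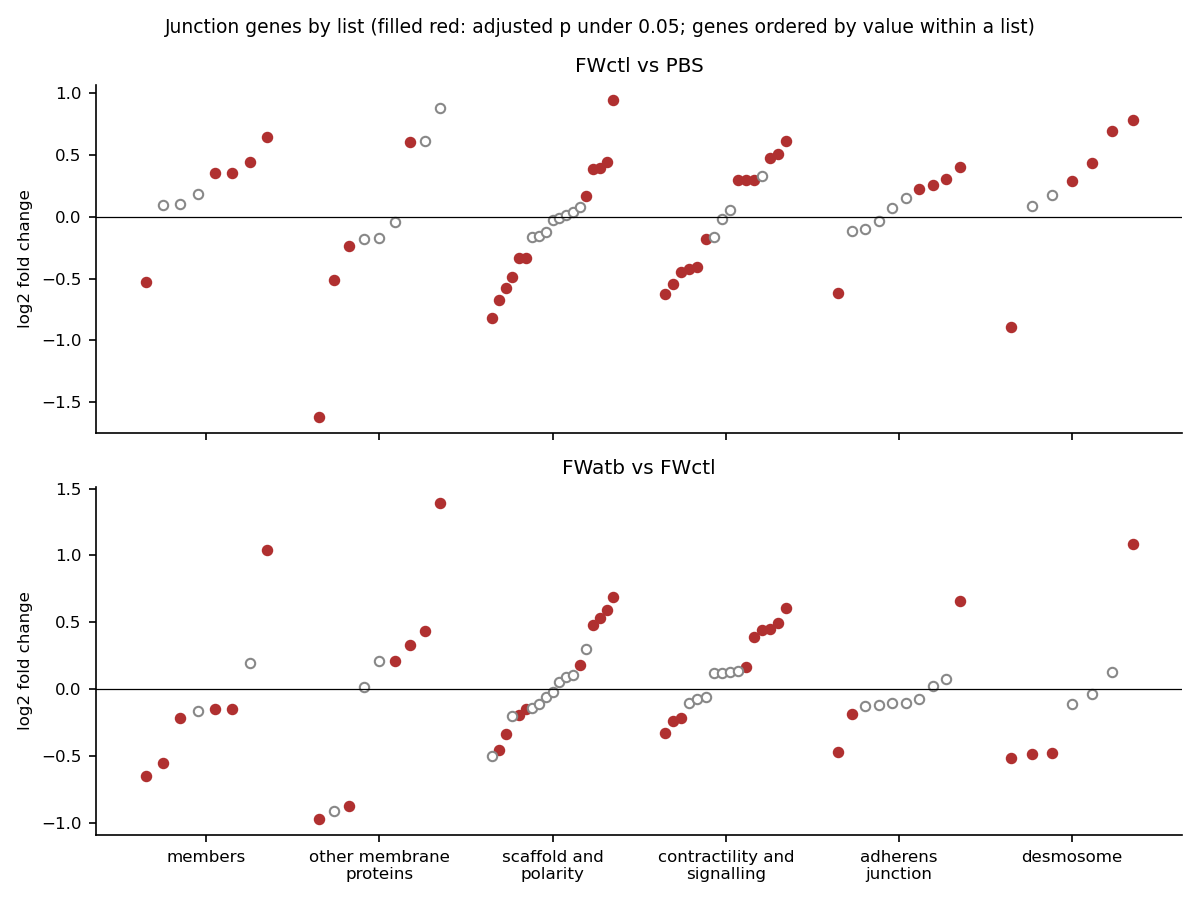
Log2 fold change (vertical axes, with a different range in each panel) of each tested gene in the members and 5 junction lists (horizontal axis, ordered by value within a list) for FWctl against PBS and FWatb against FWctl, which share the FWctl samples, with filled red points where the edgeR adjusted p was under 0.05. Every list has points on both sides of 0, from -1.62 to 0.94 in FWctl against PBS.

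Of the 17 other claudins, 5 passed the filter, and the counts of the rest reached at most 8 reads. *CLDN19* (ENSG00000164007, chr1:42733093-42740254, - strand), a cation-selectivity claudin of the kidney tubule that lies outside the rule for named genes and was chosen after its values were seen, had the largest fold change of any listed claudin. It had 5.722 to 7.688 CPM (77 to 110 reads) under PBS, 0.172 to 0.785 CPM (2 to 7 reads) under FWctl, 3.292 to 5.510 CPM under FWatb and 4.485 to 6.406 CPM under ATB. FWctl lay far below every other group. The log2 fold change was -3.98 (SE 0.252, edgeR adjusted p = 7.55e-17) in FWctl against PBS, 3.33 (SE 0.253, adjusted p = 1.55e-14) in FWatb against FWctl and -0.65 (SE 0.167, adjusted p = 0.00745) in FWatb against PBS. The gene shares 0 exonic bases with other genes. FWctl replicate 1 had 2.392 CPM (37 reads), between the other FWctl samples and the rest.

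The genes most like each member were found as the smallest root-mean-square difference in log2 CPM, relative to each gene's PBS mean, over the 21 samples and 10351 genes. For *OCLN* these were *CGN* (0.119) and *RDX* (0.12), for *TJP1* *PARP4* (0.072) and *CANX* (0.073), and for *CLDN12* *TMEM123* (0.069) and *RAB2A* (0.086). *CLDN1* was followed by *LEMD3* (0.071) and *IL6ST* (0.082), *CLDN4* by *SPON1* (0.092) and *RAP2B* (0.102), and *CLDN7* by *EIF5* (0.109) and *SMARCC1* (0.11). *CLDN2* had no such near neighbour, its closest being *PLB1* (0.33) and *TTLL12* (0.406), against a median of 0.832 over all genes compared. For *CLDN15* the closest were *AHSA2P* (0.269) and *ANXA2R-OT1* (0.274), and both claudins have few reads, which widens these differences.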

How the data were processed

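RNA of 22 Caco-2 samples was sequenced by the authors from stranded, ribosomal RNA-depleted libraries. Per the labels and the submitters' processing notes, reads were trimmed with Trimmomatic 0.38, aligned to GRCh38 with HISAT2 2.1.0 and counted per Ensembl gene with featureCounts (Subread 2.0.0). The deposited values are raw counts, neither normalized nor filtered. The strand and multi-mapping settings of the counting are not given in the sources used here, so reads of overlapping genes or near-identical copies may be split or lost.

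The labels gave the group and number of each sample. Gene symbols, positions and exonic lengths were taken from GENCODE 44 (GRCh38), in which 61369 of 61487 identifiers were found. Genes were tested where 3 or more samples had over 5 counts, in edgeR 4.0.16 (R 4.3.3), with TMM scaling, 1 quasi-likelihood model of the 4 groups over 21 samples and Benjamini-Hochberg adjustment over all genes tested. Total counts were 7118302 to 18726967 per sample (median 10825978), and intervals and floors cover sampling or counting error only. No library was a copy of another of its group, since chi-square values over degrees of freedom were 3.95 to 140.1 for the 54 pairs of replicates. Pairs from different groups were not compared in this way. Same-numbered FWctl and FWatb samples deviated together weakly, with correlations from -0.01 to 0.26 (above 0.1 in 2 of 6 pairs), as did PBS and ATB samples (0.1 to 0.212, 4 pairs).

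The members, the gene lists and the rules were chosen with earlier results of these data known. Genes outside the members were named as the up to 6 of each list with the largest absolute log2 fold change in FWatb against FWctl or FWctl against PBS, among those called and with a mean of at least 5 CPM, with *TJP3*, *MARVELD2* and *F11R* always named. Some genes that the rule names are not reported here. *CDH1*, *CDX2*, *PECAM1*, *PTPRC* and *ACTA2* are named as markers or as the cadherin of the list. The edgeR fit was run on simulated counts in which 200 genes differed between FWatb and FWctl, without library sets or pairs. Far more genes were called in the real data, so that run does not measure the error rate there. The alternatives were all 22 samples, DESeq2 1.42.0, edgeR with its size factors or with plain library size, other filters, fits of the compared groups only, a replicate block, the ribosomal DNA library set (divided at 0.5%, as a term or within each set), a fold change threshold and each replicate left out. The fits within the low-rDNA libraries were added after seeing the data. Promoter windows came from RefSeq, and tables were made with pandas 2.3.3 and numpy 2.4.6 in Python 3.11.15.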

Additional observations from a re-analysis of the deposited data

Results flagged for a closer look

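In groups of 4 to 7 samples, the highest or lowest sample was set against the others by Dixon's 95% critical value for its gap over the group's range. Of 40 groups examined, 2 stood apart, and chance gives about 2.0. *TJP1* was 171.2 CPM in FWctl replicate 3, a library of the low-rDNA set, against 140.5 to 149.8 CPM in the other FWctl samples (gap over range 0.697). *CLDN2* was 15.38 CPM in FWctl replicate 1, against 3.1 to 7.882 CPM in the other 6 FWctl samples (gap over range 0.611).

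FWctl replicate 1 was left out of the comparisons other than the alternative with all 22 samples. Its *CLDN2* level of 15.38 CPM was above the PBS samples (3.253 to 5.613 CPM), its *CLDN7* level of 91.33 CPM was above theirs (57.79 to 71.17 CPM), and so was its *TJP1* level of 118.9 CPM (94.41 to 102.7 CPM). It is 1 library without a replicate, in the low-rDNA set, and these levels have no test.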

How the results depend on the processing

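The calls of *CLDN2* in both FWatb comparisons and of *OCLN* and *TJP1* in FWctl against PBS and in FWatb against FWctl held under every alternative tried other than the added fold change threshold, which only *CLDN2* passed. The number of members called was less stable, and the cause was not tested. In FWctl against PBS it was 5, and 2 within the low-rDNA libraries, a fit of fewer samples. In FWatb against PBS it was 2, and 1 with all 22 samples, with no filter on low counts, within the high-rDNA libraries and with the library set as a term, but 3 with DESeq2, filterByExpr, only the groups compared and the replicate block (*CLDN12* joined) and with library size alone (*CLDN2*, *CLDN7* and *CLDN12*, without *OCLN*). In ATB against PBS it was 1, and 0 with all 22 samples, with library size alone and within the low-rDNA libraries, and 2 with DESeq2 and with a replicate block over all 4 groups (*CLDN1* joined *OCLN*). In FWatb against FWctl it was 6, and 3 with all 22 samples, with library size alone and within the high-rDNA libraries. With an absolute log2 fold change above 1 also required, the counts were 0, 1, 0 and 1 in that order of comparisons. Leaving out 1 library gave 4 to 5, 1 to 3, 0 to 1 and 3 to 6 members.

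A fit of the FW samples only with a replicate block called 4 members in FWatb against FWctl (*CLDN2* 1.105, *CLDN4* -0.18, *OCLN* -0.60 and *TJP1* -0.52). The pairing was not clear in the data, since 2 of 6 same-numbered pairs correlated above 0.1 (mean 0.092, against -0.015 for different numbers). Beside the calls named here, the block in all 4 groups brought *CLDN7* past the threshold in FWatb against FWctl (-0.15, edgeR adjusted p = 0.0363) and *CLDN12* in FWatb against PBS (0.19, adjusted p = 0.0457), and lost *CLDN15* in FWctl against PBS (-0.42, adjusted p = 0.104).

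Directions turned for values that were not called. Leaving out 1 library, *CLDN2* in FWctl against PBS lay between -0.014 (without FWctl replicate 2) and 0.299, and in ATB against PBS between -0.064 (without PBS replicate 2, and also below 0 without ATB replicate 2, at -0.004, or ATB replicate 3, at -0.019) and 0.169. *CLDN4* lay between -0.023 (without PBS replicate 1) and 0.145 in FWctl against PBS and between -0.023 (without the same library) and 0.123 in ATB against PBS. Within the low-rDNA libraries, *CLDN4* was -0.011 and -0.068 in these comparisons and *CLDN2* was -0.101 in ATB against PBS. *CLDN1* in FWatb against PBS was 0.027 with library size alone. ATB against PBS could not be fitted within the high-rDNA libraries, which hold 1 ATB sample. Library size alone moved the median log2 fold change of all genes in FWatb against FWctl from -0.013 to 0.093, and relative to that median *CLDN1*, *CLDN4* and *CLDN12* were lower there as well. With 4 PBS and 4 ATB samples and few reads on *CLDN2* and *CLDN15*, small changes of these genes were not detectable at this depth.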
